A study of Rattus norvegicus with 3 samples.

Results

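Gene expression in the contralateral cerebellar cortex was compared with that in the ipsilateral cerebellar cortex of rats whose middle cerebral artery had been occluded (MCAO) 2 days before. The sides were taken from the array titles, and 2 of the 3 arrays of the series were used. The genes described were the 12093 of 16656 named genes on the array with at least 1 probe well above background on both arrays, which is the scanner software's own test that a spot is brighter than its surroundings. Male Wistar rats of 9 weeks had the right middle cerebral artery occluded for a time and then reopened, so the left cerebellar cortex was contralateral and the right was ipsilateral. The same 4 rats gave both sides, and their tissue was pooled for each side. RNA of each pool was labelled with 1 dye and hybridized to 1 array of the same slide. There was 1 pool per side and no replicate array, so no test was made and no difference between rats could be measured.

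The cerebellar cortex of both sides was nearly alike in the genes of its neurons, astrocytes and oligodendrocytes. The largest differences read from many spots were in Ttr, a gene of the choroid plexus that was lower in the contralateral cerebellar cortex, and in the neuropeptide gene Cck, higher there. Most other choroid plexus genes were also lower contralaterally. Smaller decreases on the contralateral side were seen in genes of the leptomeninges, of microglia, of complement and of antigen presentation. Genes of the Nrf2 response, of hypoxia, of apoptosis and of the respiratory chain differed little between the sides.

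MCAO stops the blood supply of a large part of 1 cerebral hemisphere, while the cerebellum is fed by other arteries. Each cerebral hemisphere projects through the pons mainly to the opposite cerebellar hemisphere, and a fall in activity and blood flow there after a cerebral stroke is called crossed cerebellar diaschisis. The cerebellar cortex holds Purkinje cells, granule cells, inhibitory interneurons, Bergmann glia and other glia, and it is covered by leptomeninges and lies beside the choroid plexus of the fourth ventricle.

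Levels below are scaled log2 signals: the log2 of the spot signal after background subtraction, shifted so that the 75th percentile of both arrays was the same, and averaged over the probes of a gene. A ratio is the contralateral value minus the ipsilateral value, so a positive ratio means a higher level in the contralateral cerebellar cortex, and 1 unit is a 2-fold difference. The names of cell types were checked first. All 12 Purkinje cell markers on the array were well above background on both sides. Pcp2, a Purkinje cell regulator of G proteins, had 15.23 on both arrays. All 16 granule cell markers on the array were also well above background on both sides. Cbln1, which granule cells secrete onto Purkinje cell synapses, had 15.22 contralaterally and 15.24 ipsilaterally. Tbr1, Emx2 and Dlx1, which mark the developing and adult forebrain, were detected on neither array. Other genes of the forebrain and midbrain list were detected on both, 11 of the 19 on the array, among them Ppp1r1b, Neurod6, Lamp5 and Drd2. The markers thus showed cerebellar cortex on both sides and did not show whether other brain tissue was present.

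Across the 12093 genes the median ratio was -0.01 and 52.1% were lower contralaterally, with a 5th percentile of -0.61 and a 95th percentile of 0.23. The software also gives an error for each spot, and the ratio of 9858 genes (81.5%) was smaller than this error, whose median was 0.20 log2 units. Lower contralaterally beyond their error were 13.7% of all genes, and higher beyond it 4.77%, shares to be set beside the list counts below. That error is the software's own estimate, nearly constant at 0.20 for genes with a mean signal of 9 or more. It exceeded the spot noise measured below, a median standard deviation of 0.05. A ratio within it can thus exceed spot noise: Ptgds, at -0.19, was within it although its 10 spots did not overlap. The error does not cover the difference between rats. Beyond a ratio of 1 or -1, which is 2-fold, 27 genes were higher contralaterally (0.223%) and 206 were lower (1.70%). Of these 233 genes, 11.6% were higher, a share that was 58.7% without scaling, 42.6% after quantile normalization and 39.1% after loess, a smoothing along the mean signal. Without scaling the median of all genes was 0.38, so list medians are also given relative to the median of all genes. Dim genes made up most of the 206: 152 of them had a mean signal under 5, where 1543 of the genes lay and where the median ratio was -0.32. The 308 negative control spots had a median of 1.46 ipsilaterally and differed by -0.46, in the same direction. Whether the excess of lower dim genes came from the tissue or from the background of the arrays was not tested. Among the 2398 genes with a mean signal of at least the 75th percentile, none was higher by 2-fold and only Ttr was lower.

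**Figure D1:**
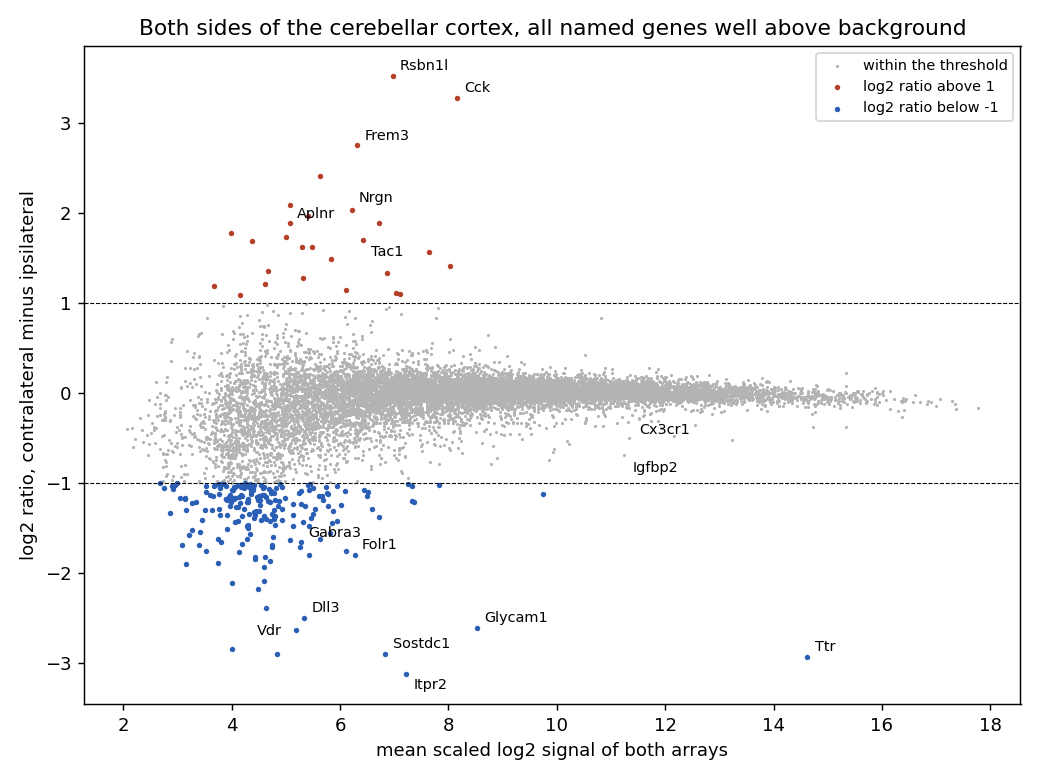
Log2 ratio, contralateral minus ipsilateral, of the 12093 named genes against their mean scaled log2 signal, with genes above 1 in red and below -1 in blue. The spread narrows as the signal rises, and Ttr at -2.93 is the only bright gene past 2-fold.

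The largest ratios were ranked among the 10213 genes whose every probe was well above background on both arrays and had the same sign. The measured basis was strongest for Cck, the gene of the neuropeptide cholecystokinin, whose probe was printed in 10 spots. Cck had 9.79 contralaterally and 6.51 ipsilaterally. Its ratio was 3.28, or 9.70-fold higher contralaterally. Its 10 spots spanned 9.71 to 9.89 on the contralateral array and 6.42 to 6.64 on the ipsilateral array. Nrgn, a calmodulin-binding protein of postsynaptic spines in the forebrain, had 7.23 contralaterally and 5.20 ipsilaterally. The Nrgn ratio was 2.04, and its 10 spots did not overlap between the arrays either. Tac1, the precursor of substance P, had 7.28 against 5.58, which made it 1.70 higher contralaterally. Camkv, a kinase-like protein of neuronal vesicles, had 6.29 against 4.67. Its ratio of 1.62 rested on dim signals.

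The other large increases contralaterally were in genes with no shared role. Rsbn1l, a gene related to histone demethylases, had the largest ratio, 3.52, with 8.73 contralaterally and 5.21 ipsilaterally, and it rested on 1 spot. Frem3, an extracellular matrix protein, had 7.69 against 4.94, a ratio of 2.75. Aplnr, the apelin receptor of vessels, had 6.01 against 4.13, a ratio of 1.88. Ajuba, a scaffold of cell junctions, had 8.74 against 7.33, a ratio of 1.41. Also among the 15 largest were LOC103693305 (2.41), Bpifa1 (1.97), Phka1 (1.62), Tnxa-ps1 (1.57), Decr2 (1.49) and Nodal (1.35). All of these, and Frem3, Aplnr and Ajuba, likewise rested on 1 spot each. In an alternative called normexp, the background was modelled, the median pixel signals were used and 50 was added, all at once. There Nodal was -0.011, so its direction cannot be stated. In the same calculation Bpifa1 fell to 0.05, Decr2 to 0.24, Aplnr to 0.30, Phka1 to 0.32 and Camkv to 0.56. LOC103693305 fell to 0.74, Ajuba to 0.75, Frem3 to 0.86 and Tnxa-ps1 to 0.89, so none of these genes kept a 2-fold increase. Rsbn1l fell to 1.88 there, below Cck at 2.57, and both stayed past 2-fold. Which of the 3 changes lowered the ratios was not tested.

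Ttr, which carries thyroid hormone and retinol and is made in the brain by choroid plexus epithelium, had 13.16 contralaterally and 16.09 ipsilaterally. Its ratio was -2.93, a 7.60-fold lower signal contralaterally. Its 10 spots spanned 13.08 to 13.20 on the contralateral array and 16.03 to 16.14 on the ipsilateral array. Sostdc1, a secreted inhibitor of BMP and Wnt signalling, had 5.39 against 8.29, a ratio of -2.89. Folr1, the folate receptor of the same epithelium, had 5.38 against 7.17, a ratio of -1.80. Sostdc1 and Folr1 were each read from 1 spot. Ttr, Sostdc1 and Folr1 were lower contralaterally by more than 2-fold in every alternative calculation that could include them.

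Other genes were as low without belonging to the choroid plexus list. Itpr2, an intracellular calcium channel, had 5.66 contralaterally and 8.78 ipsilaterally, and its ratio of -3.12 was the smallest of all. Glycam1, a mucin-like ligand of leukocyte selectin, had 7.22 against 9.83, a ratio of -2.61. Vdr, the vitamin D receptor, had 3.88 against 6.51, a ratio of -2.63. Dll3, a Notch ligand, had 4.09 against 6.59, a ratio of -2.50. Ins2, an insulin gene, had 6.29 ipsilaterally and was lower by 2.90 log2 units contralaterally, where it was dim. Itpr2, Glycam1, Vdr, Dll3 and Ins2 were each read from 1 spot. The remaining genes of the 15 smallest were Sp9 (-2.18), Tas1r3 (-2.09), Gna15 (-1.93), Ptmal1 (-1.84), Slpi (-1.82), Krt6c (-1.82) and Cistr (-1.79), all dim on the contralateral array. These 7 genes lost the 2-fold decrease with 50 added to the signal or under normexp, where their smallest sizes were Sp9 -0.69, Tas1r3 -0.69, Gna15 -0.51, Ptmal1 -0.57, Slpi -0.57, Krt6c -0.60 and Cistr -0.71. Under normexp Ins2 was -1.02, Vdr -1.07 and Itpr2 -2.03, and Dll3 was -1.13 with 50 added.

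Probes printed several times gave a measure of spot noise. On 845 probes with at least 5 spots and well above background on both arrays, the median standard deviation of the spots was 0.05 on each array. The spots of the 2 arrays did not overlap for 96 of the 845 probes. All 5 probes past 2-fold were among these 96, including those of Cck, Nrgn, Ttr and Krt6c. A 2-fold difference is far larger than this spot noise, so that outcome adds no separate support. Smaller differences of both directions were among the 96, such as Spp1 at 0.30, a Reln probe at 0.21 and Timp1 at -0.75. The spots of Trem2 at -0.13 and Cfd at -0.22 overlapped. These repeats show the noise of spots on 1 array and not that of a new pool.

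**Figure D2:**
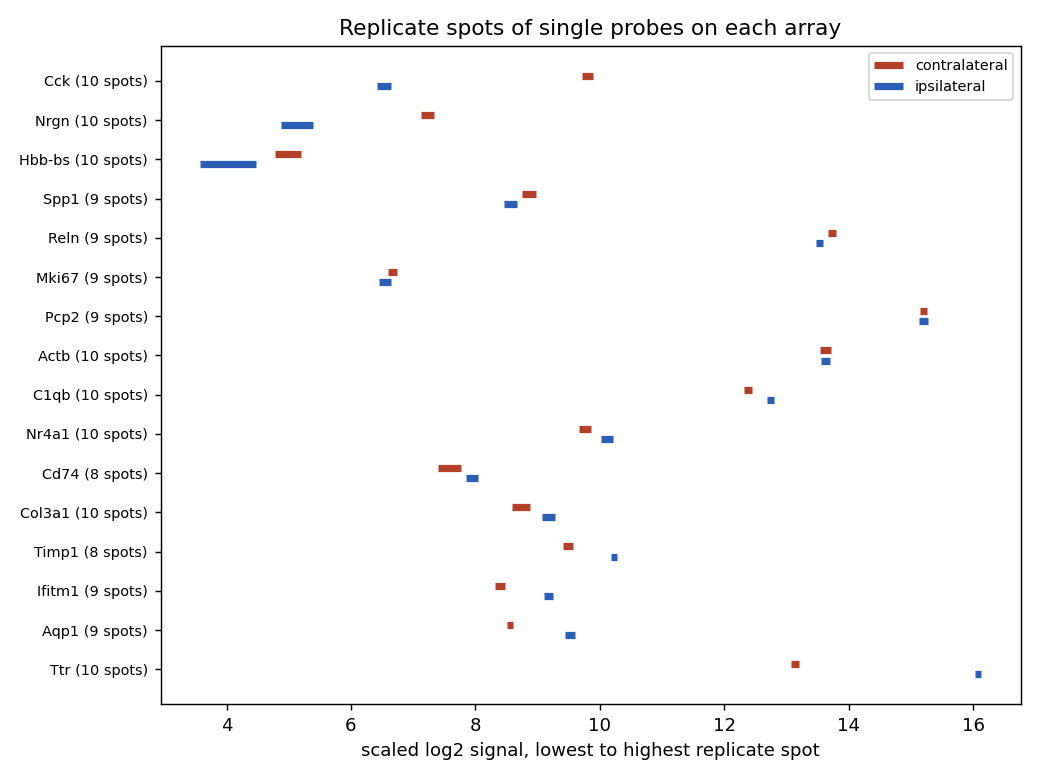
Range of the scaled log2 signal, from the lowest to the highest spot, of probes printed several times on the contralateral (red) and ipsilateral (blue) array. The spots of Cck and Ttr lie far apart on the 2 arrays, while the spots of Actb overlap at a ratio of -0.01.

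The choroid plexus list differed most of the 33 lists. Of its 17 members well above background on both arrays, 16 were lower contralaterally and 13 were lower by more than their error. The median ratio was -0.65, negative under every scaling, and its distance from the all-gene median ranged from -0.41 to -0.64. Members below -1 were 5 (29.4%, beside 1.70% of all genes): Ttr, Sostdc1, Folr1, Aqp1 and Trpv4. With 50 added to the signal, Aqp1 was -0.81 and Trpv4 -0.74, which left 3 of 17 below -1. Aqp1, a water channel of the secreting epithelium, had a ratio of -1.21. A probe of Aqp1 with 9 spots reached at most 8.61 contralaterally and at least 9.43 ipsilaterally. Trpv4, an osmosensing cation channel, was lower by 1.15. Slc4a5, a bicarbonate transporter, had 3.54 against 4.46, a ratio of -0.92, and Kcnj13, a potassium channel, had 6.70 against 7.59, a ratio of -0.89. Otx2, the transcription factor of this epithelium, had 9.02 against 9.35, a ratio of -0.33. Slc4a2 and Slc29a4, transporters also found in other cells, were nearly level at -0.10 and -0.06, and Ace, an angiotensin-cleaving enzyme, was the highest member at 0.05.

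Members seen on 1 side only gave bounds, taken with the main scaling and not repeated under the alternatives. Except for Mfrp, the bounds here and below came from brighter levels of about 5 or less. Genes with a mean signal under 5 had a median ratio of -0.32, so these bounds are not firm minima. Mfrp, a frizzled-related membrane protein, was at least 15.7-fold higher ipsilaterally. Kl, the Klotho gene, was at least 3.16-fold and Car12, a carbonic anhydrase, at least 2.66-fold higher ipsilaterally. Prlr, the prolactin receptor, was well above background only contralaterally. Its level there, 2.86, was nevertheless below the ipsilateral 3.55, so no fold could be given. Neither array detected Cldn2 or Tmem72. The summed signal of the members was 13.98 in log2 contralaterally and 16.26 ipsilaterally. Ttr, the brightest at 13.16 and 16.09, made up most of that gap, so the sums do not describe the other members. How much choroid plexus each pool held was not tested. In bulk tissue, fewer cells of a type and less RNA in each cell cannot be told apart.

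**Figure D3:**
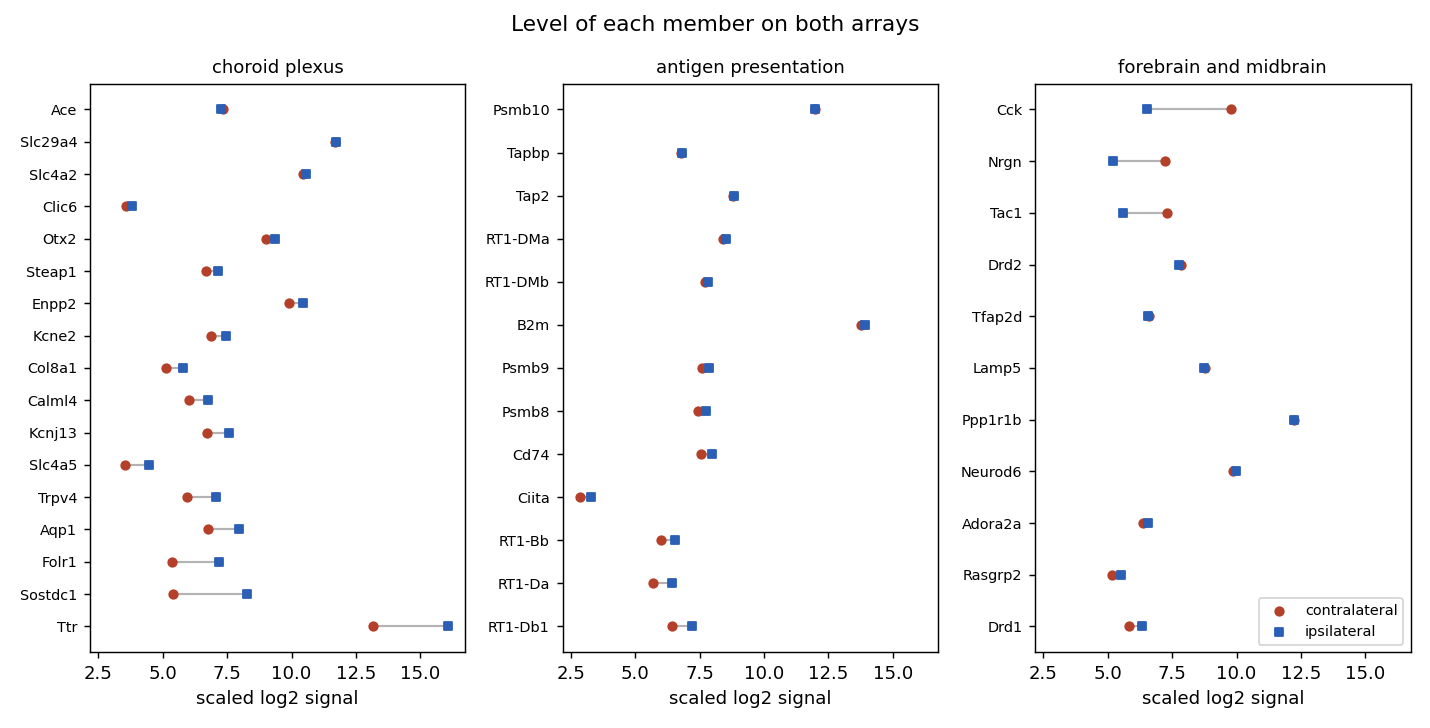
Scaled log2 signal of each member of 3 lists on the contralateral (red) and ipsilateral (blue) array. In the choroid plexus list Ttr has 13.16 against 16.09, in antigen presentation RT1-Db1 has 6.44 against 7.21, and in the forebrain and midbrain list Cck has 9.79 against 6.51.

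The leptomeninges list was lower contralaterally in 17 of 18 members, 11 of them beyond their error, with a median ratio of -0.29 that turned positive only without scaling and was -0.21 to -0.29 relative to all genes. Igfbp2, which binds insulin-like growth factors, had 10.89 contralaterally and 11.59 ipsilaterally. Its ratio of -0.69 was the smallest after Ttr among bright genes. Col1a1, a fibrillar collagen, had 9.61 against 10.26, a ratio of -0.65. Its partner chain Col1a2 had 11.92 against 12.40, a ratio of -0.48. Col3a1, another fibrillar collagen, was lower by 0.46. Ptgds, a prostaglandin D synthase and the brightest member, had 16.20 against 16.40, a ratio of -0.19. The summed signal of the list was 16.42 contralaterally and 16.65 ipsilaterally, and all 18 members on the array were detected. Slc47a1, an organic cation exporter, was the only member higher contralaterally, at 0.15. Whether the leptomeninges were sampled alike on both sides was not tested.

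Microglia and macrophage markers were lower contralaterally in 15 of 17 members, 9 of them beyond their error, with a median of -0.28 that turned positive only without scaling and was -0.22 to -0.27 relative to all genes. Without C1qa, C1qb and C1qc, which are also complement genes, the median was nearer 0, at -0.16. Cx3cr1, the fractalkine receptor, had 11.08 contralaterally and 11.58 ipsilaterally. Its ratio of -0.50 was the smallest of the list. Ptprc, the leukocyte antigen CD45, was lower by 0.45 and Cd68, a lysosomal protein, by 0.38. Tyrobp, an adaptor of activating receptors, was lower by 0.30, and Aif1, a calcium-binding protein of these cells, by 0.19. P2ry12, a purine receptor of resting microglia, was level at 0.03, and Tmem119 was the highest at 0.20. C1qb, the brightest member, had 12.37 against 12.73, a ratio of -0.36. The summed signal was 14.30 contralaterally and 14.55 ipsilaterally, Mrc1 was not detected on either array, and the number of these cells was not tested.

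Complement genes were lower contralaterally in 15 of 19 members, 11 of them beyond their error, and the median of -0.28 turned positive only without scaling. Measured from the median of all genes it was -0.25 to -0.29. The list shares C1qa, C1qb and C1qc with the microglial list, and its other 16 members had a median of -0.21. C3, the central component, had 8.81 contralaterally and 9.16 ipsilaterally, a ratio of -0.35. C4b was lower by 0.50 and Cfb, a factor of the alternative pathway, by 0.38. Masp1, a protease of the lectin pathway, had the smallest ratio, -0.56, but not all of its probes were well above background. Cd55, which protects cells from complement, was highest at 0.13.

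Antigen presentation was lower contralaterally in all 13 members, of which 6 were beyond their error, with a median of -0.26 that turned positive only without scaling and was -0.14 to -0.25 relative to all genes. RT1-Db1, RT1-Da and RT1-Bb, which encode chains of class II molecules, had the smallest ratios, while the class II genes RT1-DMb and RT1-DMa, at -0.13 and -0.12, were within their error. RT1-Db1 had 6.44 contralaterally and 7.21 ipsilaterally, a ratio of -0.77. RT1-Da, its partner chain, had 5.70 against 6.42, a ratio of -0.72. RT1-Bb, a chain of the other class II molecule, had 6.02 against 6.56, a ratio of -0.54. Cd74, the invariant chain that loads class II, had 7.54 against 7.98, a ratio of -0.44. Ciita, the class II transactivator, had a ratio of -0.46 with a probe that was not well above background. The immunoproteasome genes Psmb8, Psmb9 and Psmb10 had ratios of -0.31, -0.26 and -0.03. B2m, the light chain of class I and the brightest member, had 13.76 against 13.91, a ratio of -0.14. RT1-Ba and Tap1 were not detected on either array.

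The promoters of RT1-Da, RT1-Db1 and RT1-Bb are shown because these 3 genes had the smallest ratios of the list and carried the Y box of class II promoters. The sequences are the 250 bases before the RefSeq gene start in the rat build GRCr8, written 5′ to 3′ on the strand of the gene, with the motif CTGATTGG in capitals. RT1-Da lies at chr20:4515165-4515414 on the plus strand, RT1-Db1 at chr20:4560163-4560412 on the minus strand, and RT1-Bb at chr20:4604119-4604368 on the minus strand. The motif begins 52, 83 and 64 bases before the start in this order.
RT1-Da: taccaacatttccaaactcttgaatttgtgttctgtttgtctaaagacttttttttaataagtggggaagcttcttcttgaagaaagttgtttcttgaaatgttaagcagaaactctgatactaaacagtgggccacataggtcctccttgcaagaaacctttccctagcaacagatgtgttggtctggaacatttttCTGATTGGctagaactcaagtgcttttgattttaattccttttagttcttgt
RT1-Db1: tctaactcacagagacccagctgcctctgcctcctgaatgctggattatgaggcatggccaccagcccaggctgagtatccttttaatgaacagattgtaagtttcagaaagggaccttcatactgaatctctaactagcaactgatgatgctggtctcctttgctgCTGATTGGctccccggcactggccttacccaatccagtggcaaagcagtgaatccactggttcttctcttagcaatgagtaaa
RT1-Bb: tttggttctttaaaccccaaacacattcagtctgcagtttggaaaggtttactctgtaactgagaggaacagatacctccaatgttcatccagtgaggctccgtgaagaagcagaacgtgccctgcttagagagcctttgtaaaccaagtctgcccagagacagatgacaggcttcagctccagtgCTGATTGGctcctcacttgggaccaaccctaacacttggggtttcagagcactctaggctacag
Searched on both strands, CTGATTGG occurred in the promoters of 3 of the 11 members with a promoter entry and in 3.19% of all 33469 promoters. Its inner part ATTGG occurred in 34.0% of them. A match describes the sequence, and binding there was not measured.

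Interferon response genes were lower contralaterally in 16 of 19 members, 8 of them beyond their error, with a median of -0.18 that turned positive only without scaling and was -0.13 to -0.18 relative to all genes. Ifitm1, a membrane protein that restricts virus entry, had 8.40 contralaterally and 9.19 ipsilaterally. Its ratio was -0.79, and its 9 spots did not overlap. Gbp2, an interferon-induced GTPase, had 7.71 against 8.32, a ratio of -0.61. Ifit3, an RNA-binding partner of the same response, had 5.11 against 5.50, a ratio of -0.40. Bst2, which tethers viruses to the cell surface, had 7.99 against 8.33, a ratio of -0.35. Oasl was seen only ipsilaterally, at least 3.80-fold higher there. Mx2, the brightest member, was level at -0.04, Usp18, a brake on the response, was highest at 0.13, and Ifit1 was not detected on either array.

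The promoters of Gbp2, Ifit3 and Bst2 are shown as 3 examples of genes that were lower contralaterally and carried the interferon response element. Ifitm3, Ifitm2 and Oas1a, at -0.38, -0.32 and -0.25, were also lower beyond their error and carried it. They are again the 250 bases before the RefSeq start in GRCr8 on the strand of the gene, with the element in capitals. The element is GAAA, any 2 bases and GAAA, on either strand. Gbp2 lies at chr2:234005477-234005726 on the plus strand, Ifit3 at chr1:241527076-241527325 on the plus strand, and Bst2 at chr16:18254968-18255217 on the minus strand. The match begins 31 bases before the start in Gbp2 and 44 in Ifit3, and Bst2 has 2 overlapping matches, the nearer at 125.
Gbp2: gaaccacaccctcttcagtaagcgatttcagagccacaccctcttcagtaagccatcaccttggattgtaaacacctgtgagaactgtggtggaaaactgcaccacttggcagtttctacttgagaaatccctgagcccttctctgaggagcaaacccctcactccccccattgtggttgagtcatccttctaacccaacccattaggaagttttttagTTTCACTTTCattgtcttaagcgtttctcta
Ifit3: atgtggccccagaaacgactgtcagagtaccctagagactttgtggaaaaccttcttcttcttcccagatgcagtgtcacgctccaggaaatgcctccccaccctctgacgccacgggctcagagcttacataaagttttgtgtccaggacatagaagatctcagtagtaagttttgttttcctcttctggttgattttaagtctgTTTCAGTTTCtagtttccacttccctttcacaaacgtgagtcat
Bst2: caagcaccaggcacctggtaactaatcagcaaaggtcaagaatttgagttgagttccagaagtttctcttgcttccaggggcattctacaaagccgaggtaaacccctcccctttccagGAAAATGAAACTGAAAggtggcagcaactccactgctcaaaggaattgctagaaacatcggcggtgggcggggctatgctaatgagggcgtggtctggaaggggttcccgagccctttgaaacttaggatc
The element, searched on both strands, occurred in 9 of the 13 members with a promoter entry, namely Bst2, Gbp2, Gbp5, Ifit3, Ifitm2, Ifitm3, Irf7, Oas1a and Rsad2. It occurred in 3.41% of all promoters. The PU.1 site GAGGAA occurred in 7 of 11 promoters of the microglial list and in 23.3% of all, and the Otx2-type site TAATCC in 1 of 11 of the choroid plexus list, that of Ace, and in 6.34% of all. Irf7 carried the interferon response element and was level at -0.01, so a match did not go with a lower level in each gene.

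Immediate early genes, which neurons switch on within minutes of activity, were lower contralaterally in 20 of 26 members, 13 of them beyond their error (52.1% and 13.7% of all genes), and the median of -0.21 turned positive only without scaling. Measured from the median of all genes it was -0.16 to -0.20. Egr3, a zinc finger transcription factor, had 3.89 contralaterally and 4.92 ipsilaterally, a ratio of -1.02 from dim signals that was -0.31 with 50 added. Nr4a1, an orphan nuclear receptor, had 9.76 against 10.12, and its ratio of -0.37 came from 10 spots that did not overlap. Its relatives Nr4a3 and Nr4a2 were lower by 0.71 and 0.47. Bdnf, a neurotrophin, and Egr4 were both lower by 0.52. Fos had 6.46 against 6.79, a ratio of -0.34, and Fosb was at least 3.01-fold higher ipsilaterally, from a dim level of 4.67. Egr1 and Arc were level at -0.01 and 0.09, and Jund, the brightest member, at 0.06. Egr2 was highest at 0.96, but its 2 probes gave 0.24 and 1.69 and 1 of them was not well above background. Npas4 and Zfp36 were not detected. The cAMP response element TGACGTCA occurred in the promoters of 5 of the 18 members with an entry, Btg2, Dusp1, Ier2, Jund and Maff, and in 1.59% of all promoters.

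Of the 24 inflammation and acute phase genes, 9 were higher and 15 lower. Beyond their error, 8 were lower and 2 higher, beside 13.7% and 4.77% of all genes. The median of -0.07 turned positive without scaling and when scaled by added control RNAs (spike-in scaling). Measured from the median of all genes it was -0.05 to -0.08. Timp1, an inhibitor of matrix proteases, had 9.48 contralaterally and 10.23 ipsilaterally, a ratio of -0.75, with 8 spots that did not overlap. Il1b, an early cytokine, had 4.29 against 5.35, a ratio of -1.05 from dim signals that was -0.38 with 50 added. Lcn2, an iron-binding acute phase protein, had 5.20 against 6.14, a ratio of -0.94. Socs3, a feedback inhibitor of cytokine signalling, was lower by 0.56 and Ccl5, a chemokine, by 0.51. Spp1, osteopontin, had 8.85 against 8.56 and was the highest member at 0.30, and its 9 spots did not overlap either. Cx3cl1, the ligand of Cx3cr1 and the brightest member, was level at 0.07. Nos2 and Il1rn were at least 2.04-fold and 1.91-fold higher ipsilaterally, and Il1r1 at least 1.39-fold higher contralaterally. The brighter levels of these 3 genes were dim, at 4.10, 4.18 and 3.95. Il6, Ptgs2, Cxcl1, Ccl4, Osmr, Selp and Serpina3n were not detected on either array.

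The forebrain and midbrain list held Cck, Nrgn and Tac1 (27.3% of its members above 1, beside 0.223% of all genes). Under normexp Nrgn fell to 0.96 and Tac1 to 0.89, so only Cck of the 11 members stayed above 1. The other 8 of its 11 members did not move with them, and the median was 0.03, or -0.02 under normexp. Ppp1r1b, a phosphatase inhibitor of dopamine-receiving neurons and the brightest member, had 12.24 contralaterally and 12.22 ipsilaterally. Neurod6, a transcription factor of cortical neurons, was lower by 0.11. Drd1, a dopamine receptor, averaged -0.54, but its probes gave -1.36 and 0.29. Six3, a homeobox gene, was at least 1.69-fold higher contralaterally, from a dim level of 4.23. The summed signal was 12.95 contralaterally and 12.75 ipsilaterally, and Tbr1, Emx2 and Dlx1 were not detected. Whether tissue from outside the cerebellar cortex was in a pool was not tested.

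**Figure D4:**
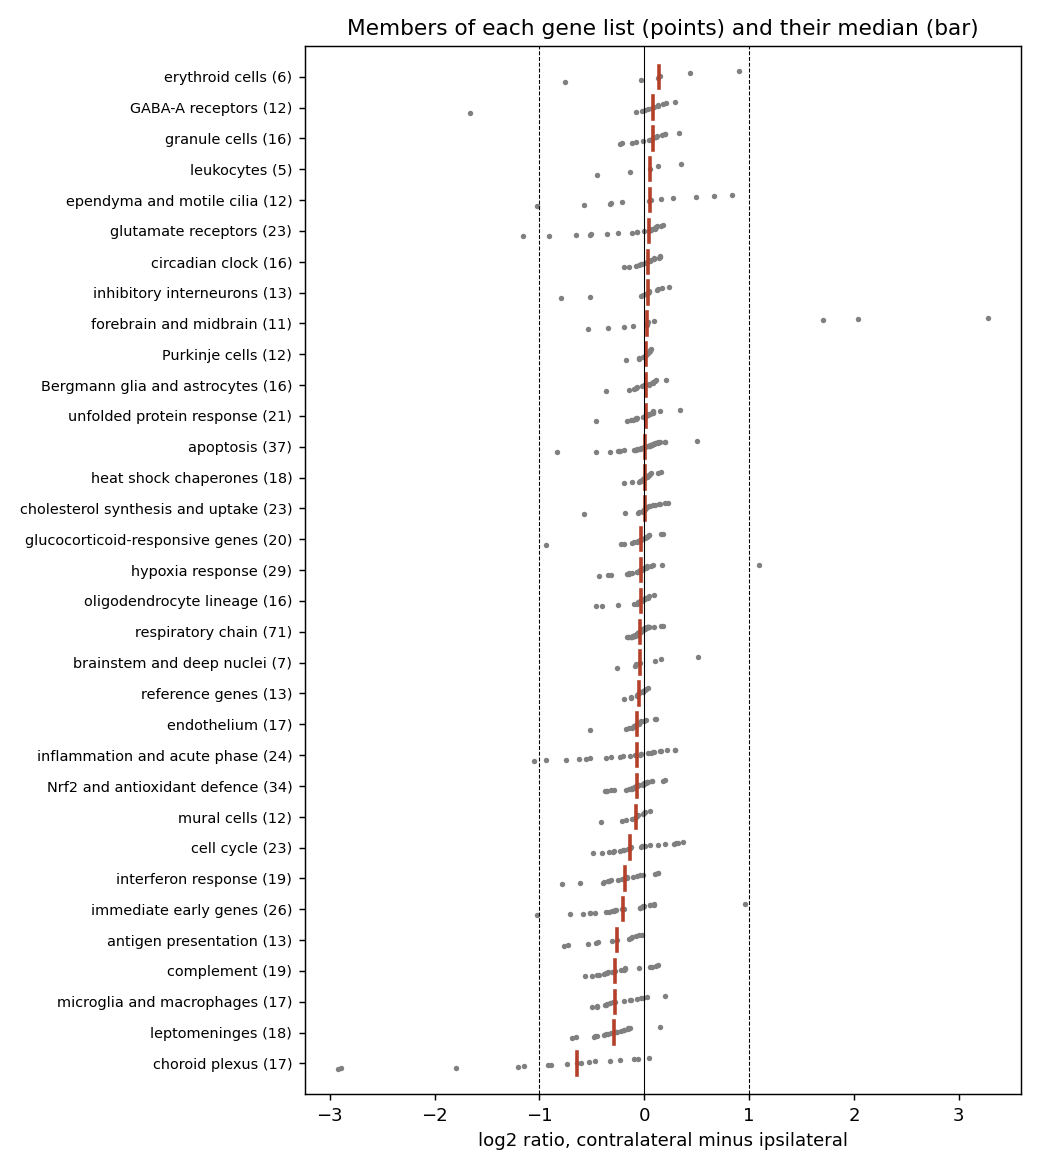
Log2 ratio, contralateral minus ipsilateral, of the members of each of the 33 lists, with the number of members in brackets and the list medians marked. The choroid plexus list lies lowest with a median of -0.65, and most lists lie near 0.

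The neurons of the cerebellar cortex were level. In the Purkinje cell list 8 of 12 members were higher, the median was 0.02, and each ratio was within its error. Aldoc, an enzyme of glycolysis in stripes of Purkinje cells and in glia, was the brightest and lowest member, with 17.69 contralaterally and 17.86 ipsilaterally. Its ratio was -0.17, and Itpr1, the calcium channel of Purkinje cells, was highest at 0.06. Granule cell markers had a median of 0.08, from Lmx1a at -0.24 to Barhl1 at 0.33, both transcription factors, and 11 of 16 were higher. Inhibitory interneuron markers had a median of 0.03, which fell under 0 with normexp. Their range was from Pax2, a transcription factor of immature interneurons, at -0.80 to Lgi2, a secreted synaptic protein, at 0.23. Ptf1a was not detected.

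Glia and vessels of the cerebellar cortex also differed little. Bergmann glia and astrocyte markers had a median of 0.02, with Slc1a2, a glutamate transporter, at 0.21, S100b at 0.05 and Gfap at -0.08. Sox9, a transcription factor of glia, averaged -0.37 from probes between -1.09 and 0.11. The oligodendrocyte list had a median of -0.03, positive without scaling and with spike-in scaling, from Aspa at -0.46 to Olig1 at 0.10. Endothelial markers had a median of -0.07, positive without scaling and with spike-in scaling, and 14 of 17 were lower. Cdh5, the cadherin of endothelial junctions, was lowest at -0.52, Abcb1a, an efflux pump, highest at 0.11, and Slc2a1, the glucose transporter, was at -0.12. Mural cell markers had a median of -0.07, positive without scaling and with spike-in scaling, from Des at -0.41 to Myh11 at 0.05, and Vtn was at -0.01.

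Smaller lists of other cells had wide ranges, with medians from -0.04 to 0.14. Ependymal and ciliary genes had a median of 0.05, negative under normexp. Of their 12 members, 4 were higher beyond their error and 2 lower, beside 4.77% and 13.7% of all genes. Tmem212 had 6.52 contralaterally and 5.68 ipsilaterally, a ratio of 0.84. Tekt1, Dynlrb2 and Tekt4 were also higher beyond their error, at 0.66, 0.49 and 0.27. Meig1 averaged -1.02 from probes at -1.59 and -0.46, not both well above background. It was within its error and was -0.29 with 50 added. Rarres2, the brightest, was at -0.32, Foxj1, the master regulator of motile cilia, was level at 0.04, and Spag6 was not detected. Erythroid genes had 4 of 6 members higher and a median of 0.14, negative under normexp and 0.30 after quantile normalization and after loess. Hbb-bs, a beta globin, had 5.01 against 4.11, a ratio of 0.90 from dim signals. Hbb-b1, another beta globin, had 7.29 against 6.85, a ratio of 0.44. The 10 spots of Hbb-bs and of each of the 2 Hbb-b1 probes did not overlap between the arrays. Hba-a1, an alpha globin, had 9.98 against 9.83, a ratio of 0.15, with overlapping spots. Hba-a2 was at -0.04, and Klf1 was lowest at -0.75. Of the leukocyte list only 5 of 18 genes on the array were detected on both sides, with a median of 0.06, negative under normexp, from S100a9 at -0.45 to S100a8 at 0.35, and Nkg7, the brightest, was at 0.13. The brainstem and deep nuclei list had a median of -0.04, positive under 4 scalings. Slc17a6, the vesicular glutamate transporter of deep nuclei and brainstem, had 9.11 against 8.60, a ratio of 0.51, while Tph2 was at -0.26 and Nefm, the brightest, at 0.16.

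Antioxidant genes changed little. The Nrf2 list had 10 members higher and 24 lower of 34, with a median of -0.07 that turned positive without scaling and with spike-in scaling and was -0.04 to -0.07 relative to all genes. Nfe2l2, the gene of Nrf2, had 9.64 contralaterally and 9.77 ipsilaterally, and its ratio of -0.12 was within its error. Hmox1, heme oxygenase, had 7.51 against 7.82, and its ratio of -0.31 was beyond its error of 0.21. In the list 5 of 34 members were lower beyond their error and none higher, beside 13.7% and 4.77% of all genes. Gpx1 and Sod3, lower by 0.18 and 0.15, were within their error, but their replicate spots did not overlap. Those of Txn1, Prdx1, Gstp1 and Taldo1 overlapped. Gsr, glutathione reductase, was lowest at -0.37, and Txnrd1, thioredoxin reductase, was highest at 0.20. Nqo1 was level at -0.05. Fth1, the ferritin heavy chain and the brightest member, had 16.36 against 16.43. Osgin1 was at least 2.47-fold higher ipsilaterally, from a dim level of 4.38 there, and Gclm was not detected. The antioxidant response element TGANNNNGC occurred in 15 of the 27 members with a promoter entry and in 34.7% of all promoters.

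Other stress and death programs were level as lists. In the respiratory chain 55 of 71 members were lower, but all were within their error and the median of -0.04 was positive without scaling and with spike-in scaling. Its range was from Ndufs5 at -0.17 to Ndufs4 at 0.18, and Cox6a1 had 16.93 contralaterally and 17.08 ipsilaterally. Hypoxia genes had a median of -0.03, positive without scaling and with spike-in scaling, from Hk2, a hexokinase, at -0.43 to Pfkfb4 at 1.09. The probes of Pfkfb4 gave 0.06 and 2.13, so its place past 2-fold rested on 1 of 2 probes. Pgk1 was level at -0.02. Apoptosis genes had 20 of 37 members higher and a median of 0.01, negative under normexp. Birc3, an inhibitor of caspases, was lowest at -0.83, Casp2 highest at 0.50 from probes between -0.01 and 1.45, and Bax was level at 0.00. The unfolded protein response had a median of 0.01, negative under normexp, from Trib3 at -0.46 to Dnajb9 at 0.34, and heat shock chaperones 0.01, from Hspa1a at -0.19 to Hspb8 at 0.16.

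Receptor lists had medians near 0 and some low members. GABA-A receptor genes had 9 of 12 members higher and a median of 0.08. Gabra3, the alpha 3 subunit, had 4.45 contralaterally and 6.11 ipsilaterally, a ratio of -1.66 from 1 spot that was -0.73 under normexp. Gabrd, the delta subunit of granule cells, was level at 0.01. Glutamate receptor genes had a median of 0.04, negative under normexp. Of its 23 members 6 were lower by more than their error and none was higher by more than its error, beside 13.7% and 4.77% of all genes. Grin3a averaged -1.15 from probes at -2.05 and -0.26 and was -0.17 with 50 added, and Grm8 -0.91 from probes at -1.80 and -0.01. Grik3 was lower by 0.65 and Grid1 by 0.50, each from 1 dim spot. Grm2 averaged -0.52 from probes at -1.15 and 0.10, and Grin2d -0.36 from probes at -0.71 and -0.00. Grik1 was highest at 0.18, and Grm4, a receptor of granule cells, was at -0.12.

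The remaining lists served as further comparison. Glucocorticoid-responsive genes had a median of -0.03 whose sign depended on the scaling, with Nr3c1, the receptor, highest at 0.18, Fkbp5 level at 0.03 and Lcn2 lowest. Cholesterol genes had 0.01, negative under normexp, with 14 of 23 higher, and Msmo1, the brightest, was level at -0.01. Cell cycle genes had -0.14, positive without scaling and after quantile normalization, from Cdk1 at -0.49 to Mcm6 at 0.37, and Pcna was at -0.03. Clock genes had 0.03, negative under normexp, from Ciart at -0.20 to Tef at 0.15. Reference genes had -0.05, positive without scaling and with spike-in scaling, with 10 of 13 lower, from Rplp0 at -0.19 to Sdha at 0.03. Actb had 13.65 contralaterally and 13.66 ipsilaterally, a ratio of -0.01 with overlapping spots.

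Among bright genes the increases contralaterally were small. Ubr7, a ubiquitin ligase, had 11.03 contralaterally and 10.75 ipsilaterally, a ratio of 0.28. Epb41l3 and Dync1h1, of the membrane skeleton and of dynein, were both higher by 0.27. The other 7 of the 10 largest bright ratios, Tincr, Col9a2, Cdc42bpg, Rn5-8s, Mindy2, Usp34 and Map1a, lay between 0.20 and 0.26, close to the error. The bright decreases were larger: after Ttr and Igfbp2 came Cym (-0.53), Cx3cr1, Col1a2, Glra2 (-0.38), Ptprn2 (-0.38), Tspan18 (-0.37), Fmod (-0.37) and C1qb. Of these 10 bright decreases, Igfbp2, Col1a2 and Fmod were on the leptomeninges list and Cx3cr1 and C1qb on the microglial list.

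**Figure D5:**
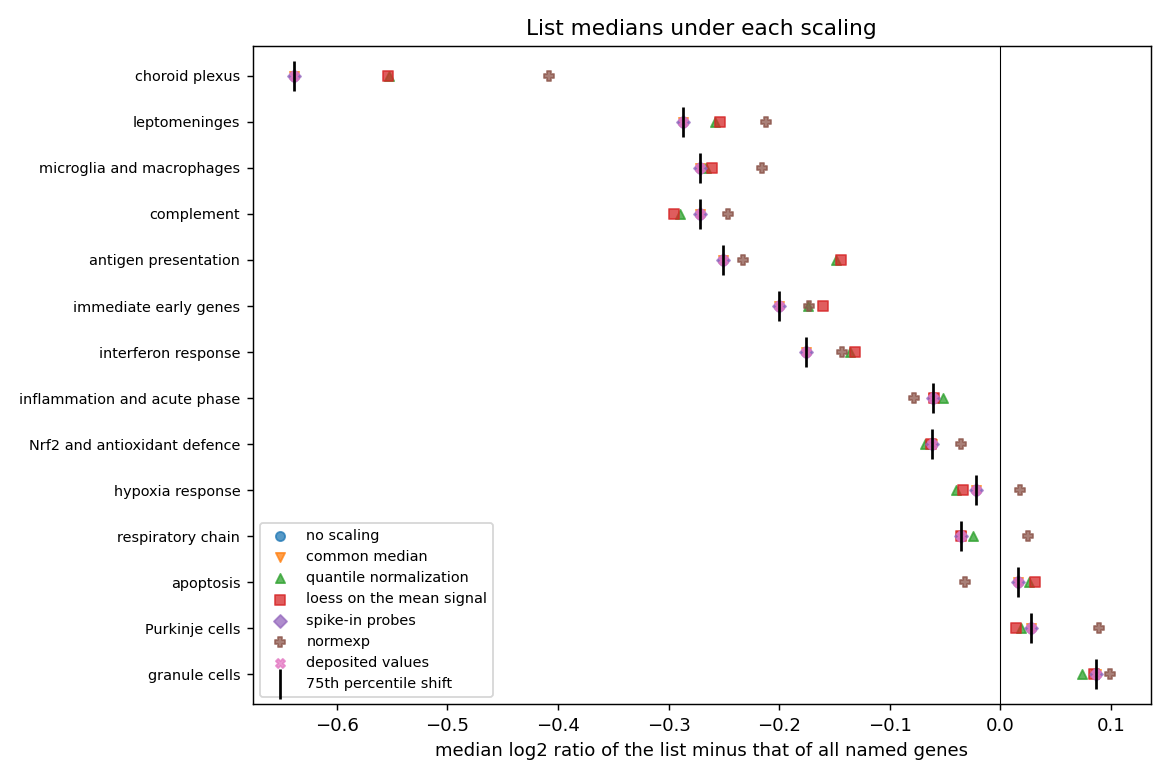
Median log2 ratio of 14 lists minus the median of all named genes, with the 75th percentile shift as a black bar and each of 7 other scalings as a symbol. The choroid plexus list lies between -0.64 and -0.41, while the hypoxia, respiratory chain and apoptosis lists cross 0 under normexp.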

How the data were processed

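The intensity values are those the authors deposited for each array, as Agilent Feature Extraction 12.1.0.3 output. That software had subtracted the background and marked outlier spots. Control spots were left out, and so were 572 outliers among the other 58717 spots. The processed signal was taken as log2 and shifted to a common 75th percentile of 10.85, from 11.04 (contralateral) and 10.66 (ipsilateral). Of 39957 accessions, 17616 were matched to RefSeq symbols, and probes were averaged by symbol. The remaining array, of control rats, was not used here. The deposited value table is linear and equals the processed signal times 1 factor per array, 1.12 and 1.45. The authors describe a normalization to control samples of each chip, and whether it gave these factors is unknown. The column medians were 139 and 140.

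Named genes were Nfe2l2, Hmox1, Actb, the 15 largest and 15 smallest ratios, the 10 largest and 10 smallest among bright genes, and in each of 33 lists the highest, lowest, brightest and past-threshold members. Some of these genes are not reported here. Genes named beyond these were chosen after their values were seen. Members and lists were chosen with earlier results of these data known. The motifs were chosen after the values were seen, and 13 were searched.

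Alternatives were no scaling, the median, quantile, loess, spike-in scaling with 8 probes, normexp (a model of background and signal, fitted on median signals, with an offset of 50), 50 added to the signal, the deposited values, other probe rules and kept outliers. With 1 array per side, precision cannot be estimated beyond spots. The scripts were tested on simulated data. Tools were Python 3.11.15, numpy 2.4.6, pandas 2.3.3, matplotlib 3.10.9, R 4.3.3 and limma 3.58.1.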

Additional observations from a re-analysis of the deposited data

How the results depend on the processing

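The counts of 27 genes higher and 206 lower contralaterally depended on the scaling and on how dim signals were treated, and the cause was not tested. Genes higher numbered 88 without scaling, 66 after quantile normalization, 61 after loess, 2 with normexp, 8 with 50 added to the signal, 217 with no filter on dim probes and 0 among genes with a mean signal of at least the 75th percentile. Genes lower numbered 62 without scaling, 89 after quantile normalization, 95 after loess, 9 with normexp, 9 with 50 added, 137 with every probe well above background, 1652 with no filter on dim probes and 1 among the bright genes. Of 38 named genes past 2-fold, 37 kept their sign and 10 stayed past 2-fold in every alternative that held them, of 14 (the bright-gene rule held only Ttr of the 38): Cck, Dll3, Folr1, Glycam1, Ins2, Itpr2, Rsbn1l, Sostdc1, Ttr and Vdr. Nodal changed sign, to -0.011 with normexp. With 1 pool per side, a difference between sides cannot be told apart from a difference between dissections or arrays.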
